A study of Mus musculus with 4 samples.

Results

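The genes described here are 38 genes of cilia, the microtubule-based projections of the cell surface. They were chosen by name, of 52636 genes measured. 27 of them belong to multiciliated cells and the beating axoneme, and 11 to intraflagellar transport and the primary cilium. Each of the 38 symbols matched 1 row of the table through its Ensembl identifier. Expression was measured by RNA sequencing of RNA from the total lung of C57BL/6 mice at embryonic day 14.5. The Control group held 2 wild-type samples and the Yap CKO group 2 samples in which Yap was deleted conditionally, in the epithelium according to the series title. The labels name neither the Cre driver, nor the exons removed, nor whether each sample came from its own embryo. The p-values therefore measure only the spread between these samples, which may be technical. Whole lung also holds mesenchyme, vessels and blood, in which Yap was not the target of an epithelial deletion.

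A motile cilium carries dynein arms, radial spokes and a central pair of microtubules on its axoneme, and an airway multiciliated cell bears many of them. Its program starts when Gmnc and Mcidas act with E2F factors to switch on Foxj1 and the genes that multiply centrioles, and RFX factors act beside Foxj1. A primary cilium is solitary and does not beat. It is built by intraflagellar transport, is found on most cells of the lung mesenchyme and epithelium, and is where hedgehog signals are read. In mouse airways multiciliated cells mature late in gestation.

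No member passed the test between Yap CKO and Control. The test was limma on log2(normalized count + 1), with an adjusted p under 0.05 counted as a call, and log2 changes are Yap CKO minus Control on that scale. 29 members had a mean of at least 10 normalized counts and were tested, and 0 rose and 0 fell. Of all 19472 genes tested, 2.33% were called. At an unadjusted p under 0.05 stood 7 members, beside 18.9% of all genes tested. Of these 3 were higher (Ccdc39, Spag17 and Bbs4), where 9.34% of all genes were, and 4 were lower (Foxj1, Rfx3, Ccno and Dnah11), where 9.52% were. edgeR called 0 members and 2.07% of all genes, and DESeq2 called 1 member, Dnah11, and 5.33% of all genes. With the replicate number as a block 0 members and 1.76% of all genes were called, and with the numbers crossed 1 member (Dnah11) and 4.99%. Both libraries of a group lay beyond both of the other in 18 of the 38 members. Among the 29 tested, 8 were higher in this way and 8 lower. The shares of all genes tested were 25.2% and 25.6%, or 50.8% in either direction. 9 motile members lay below the filter and 0 primary cilium members did. The median log2 change was -0.14 over the 18 motile members tested and 0.11 over the 11 primary cilium members, beside -0.005 over all genes tested.

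The libraries held 17756301 to 21333878 reads in genes. Values below are normalized counts, in the order Control 1, Control 2, then Yap CKO 1, Yap CKO 2 wherever pairs are given. Yap1 itself had 5686 and 3467 in the Controls, against 3209 and 4483 in Yap CKO. The groups overlapped (limma log2 difference -0.23, 95% interval -0.83 to 0.38, adjusted p = 0.683), so this value does not check the labels, and all directions are those of the libraries labelled Yap CKO. Its sign depended on the library, since leaving out Control 1 gave 0.13 and leaving out Control 2 gave -0.58. The lung epithelial genes Epcam (2145 to 2734) and Nkx2-1 (2569 to 3333) and the lung mesenchymal gene Tbx4 (4101 to 5147) were present in every library. Libraries differed in other tissue and in sex. The 10 heart muscle markers summed to 1710 and 42618 normalized counts in the Controls and to 9543 and 1768 in Yap CKO. The level of Xist, the RNA of the silenced X, was 42.6 in Control 1 and between 42729 and 50045 elsewhere. Control 2 was thus the highest in heart genes and Control 1 the only library without high Xist, and the part of either in the results was not tested.

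**Figure D1:**
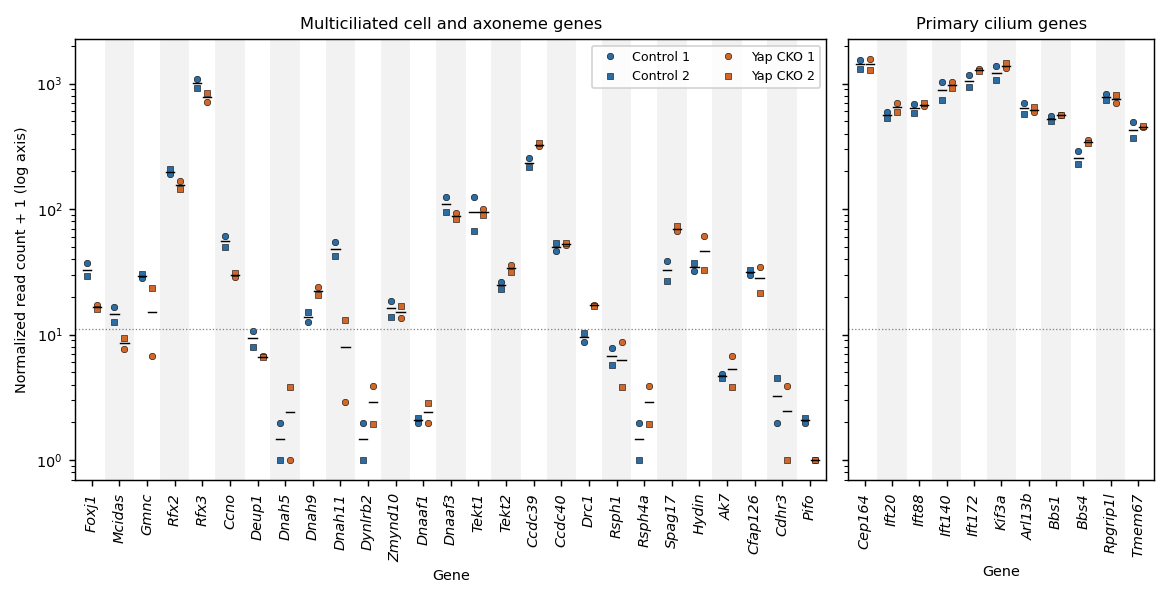
Normalized read count plus 1 (vertical, log axis) of the 38 cilium genes, 1 point per library, with a black line at each group's mean (n = 2) and a dotted line at the filter of 10. Foxj1, Mcidas, Gmnc, Rfx2, Rfx3, Ccno and Deup1 sit lower in both Yap CKO libraries than in both Controls. Of all genes tested 25.6% do so. Of the 11 primary cilium genes 3 sit higher in both Yap CKO libraries and 8 overlap between groups.

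Levels between genes were compared as reads per kilobase of exon per 1000000 reads in genes, averaged over the 4 libraries. The 11 primary cilium members ran from 2.46 (Bbs4) to 19.6 (Ift20), with a median of 6.08. The 27 motile members ran from 0.0030 (Dnah5) to 3.97 (Rfx3), with a median of 0.218. The tested genes as a whole had a median of 5.56 on the same scale. Only Rfx3, Tekt1, Dnaaf3, Ccdc39 and Rfx2 of the motile members stood above 1. Rfx3, a transcription factor that serves primary as well as motile cilia, was the highest of them. Several defining genes of mature multiciliated cells (Dnah5, Dnaaf1, Rsph4a, Pifo) thus held 3 reads or fewer in every library, while the primary cilium genes lay around the median of all genes.

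**Figure D2:**
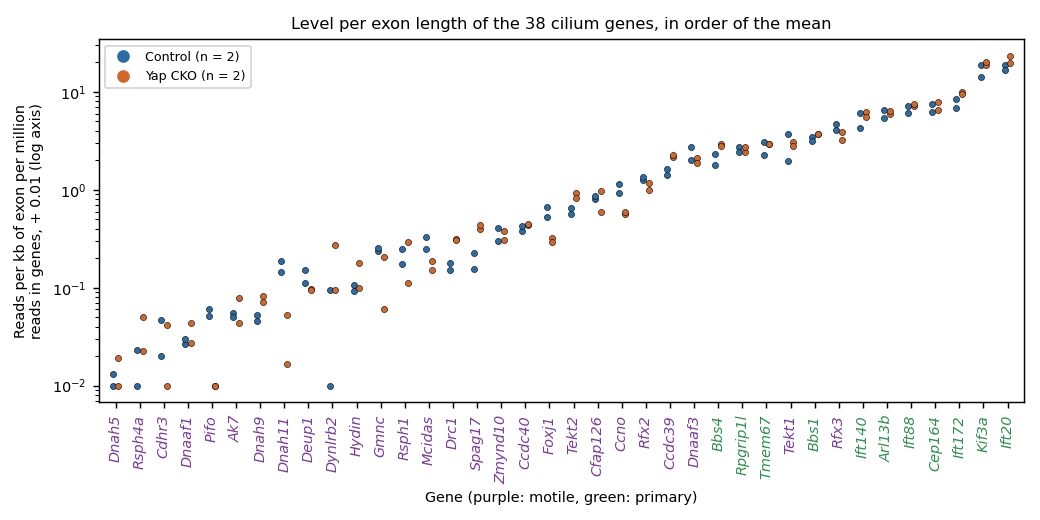
Reads per kilobase of exon per 1000000 reads in genes, plus 0.01 (vertical, log axis), for the 38 cilium genes in order of their mean, with Control points in blue and Yap CKO points in orange (n = 2 per group). The green primary cilium genes fill the upper end, from 2.46 to 19.6, and most purple motile genes lie below 1.

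Promoter windows of these genes were searched for short sequences, which the choice by name did not use. RFX transcription factors bind an X-box, made of paired inverted copies of the core GTTGCC. Promoter windows of 250 bases before to 50 bases after the start, from RefSeq on GRCm38.p6, were found for 33 members with 41 windows. The core GTTGCC stood on either strand in 21 of the 41 windows (51.2%), against 4111 of 32851 windows of all genes (12.5%). It stood in 14 of 31 windows of motile members and in 7 of 10 windows of primary cilium members. Of the 33 members with a window, 20 held the core and 13 did not. The full X-box stood in 1 of the 41 windows, that of Pifo (2.44%), and in 0.451% of all windows. The longer form GTTGCCA, which overlaps the core, stood in 26.8% of member windows and 4.38% of all windows. The cilium genes outside the 38 members also held the core more often than all genes, in 26 of 68 windows of other motile genes (38.2%) and in 28 of 87 windows of other primary cilium genes (32.2%). The letters of the core were chosen after several forms had been counted in these promoters, and the shares are a description with no test. Dnaaf1, Foxj1, Rsph1, Rsph4a and Tmem67 had no entry.

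Windows of up to 60 bases upstream of the start are shown for 8 members, to set the core in regulators beside the core in axoneme and transport genes. The sequences read 5′ to 3′ on the gene's strand and capitals mark the core on either strand (GGCAAC is its reverse).
Mcidas: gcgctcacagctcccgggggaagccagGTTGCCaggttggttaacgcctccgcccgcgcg
Ccno: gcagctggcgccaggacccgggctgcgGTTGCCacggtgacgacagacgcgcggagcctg
Deup1: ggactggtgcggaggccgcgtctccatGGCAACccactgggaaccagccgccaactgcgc
Rfx2: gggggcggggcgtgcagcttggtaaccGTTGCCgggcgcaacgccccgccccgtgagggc
Tekt1: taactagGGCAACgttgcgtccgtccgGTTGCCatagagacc
Dynlrb2: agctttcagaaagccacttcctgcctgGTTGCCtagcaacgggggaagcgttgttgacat
Ift140: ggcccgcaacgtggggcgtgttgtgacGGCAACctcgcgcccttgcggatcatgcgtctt
Kif3a: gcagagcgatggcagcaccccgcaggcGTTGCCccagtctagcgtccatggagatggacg

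In mm10 these lie at chr13:112993646-112993705 (Mcidas, plus strand), chr13:112987556-112987615 (Ccno, plus), chr9:15627893-15627952 (Deup1, minus) and chr17:56831092-56831151 (Rfx2, minus). The others lie at chr11:72361883-72361924 (Tekt1, minus), chr8:116504937-116504996 (Dynlrb2, plus), chr17:25015950-25016009 (Ift140, plus) and chr11:53567244-53567303 (Kif3a, plus). The core began 195 bases before the start in Mcidas, 219 in Ccno, 79 in Deup1 and 116 in Rfx2. Tekt1 held 2 copies, the nearer 15 bases before the start. The sequence GTAAACA, a site of forkhead factors such as FOXJ1, stood in 2.44% of member windows and 3.65% of all windows. GGAATG, the site of the TEAD factors through which Yap reaches DNA, stood in 7.32% of member windows (Deup1, Dnah5 and Gmnc) and 14.7% of all windows. The E2F site TTTGGCGC stood in 0 of the 41 windows and in 0.514% of all windows. All were searched on both strands, and none of these 3 overlaps the RFX core in its letters.

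**Figure D3:**
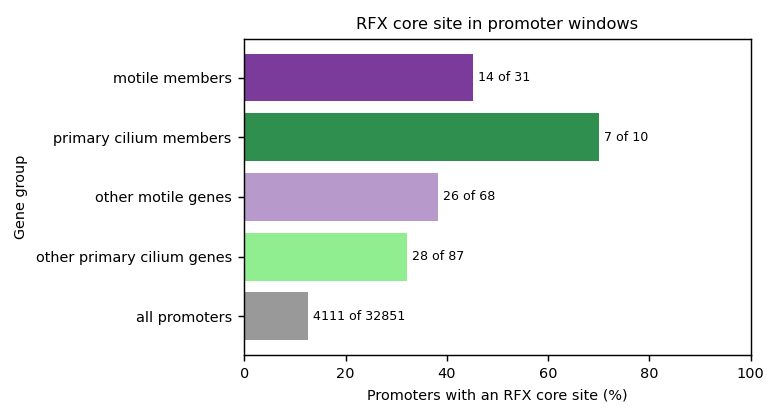
Share of promoter windows with the RFX core site (horizontal, percent) for the motile and primary cilium members, the other motile and primary cilium genes and all promoters, with the number of windows beside each bar. The shares run from 70.0% of primary cilium member windows to 12.5% of all windows.

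Regulators of the multiciliated cell shared 1 direction. In normalized counts, all 7 members that regulate the program or multiply centrioles were lower in both Yap CKO libraries than in both Controls. Of all genes tested 25.6% were placed this way, and of all genes with a read 20.5%. Deup1 was placed so by the scaling alone, since Control 2 and both Yap CKO libraries held 6 reads each. For Gmnc, Control 2 held 25 reads and Yap CKO 2 held 24. None of the 6 that were tested passed, and in these whole-lung libraries fewer cells of a type and less RNA per cell cannot be told apart. Foxj1, the transcription factor that switches on motile cilium genes (mm10 chromosome 11, 116330704 to 116335399), had 35.9 and 28.1 in the Controls, against 16.3 and 14.9 in Yap CKO. The Control mean was 32.0 ± 5.51 and the Yap CKO mean 15.6 ± 1.01 (SD, n = 2). The log2 difference was -0.98 ± 0.34 (SE), with a limma adjusted p of 0.198. These values rest on 61 Control and 33 Yap CKO reads, a ratio of 0.483 with an exact 95% counting interval of 0.306 to 0.75.

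Ccno encodes cyclin O, which is needed to make the many basal bodies. It stood at 60.1 and 49.1 in Controls and at 27.9 and 29.8 in Yap CKO, a log2 difference of -0.89 ± 0.28 (limma adjusted p = 0.163). Mcidas, which encodes multicilin, lies 3067 bases downstream of Ccno on the same strand of chromosome 13. It stood at 15.5 and 11.7 in Controls and at 6.73 and 8.39 in Yap CKO (-0.76 ± 0.45, limma adjusted p = 0.421). Both neighbours were lower by a similar amount, but the 42 reads of Mcidas in all leave its counting interval at 0.275 to 1.06. Deup1, which encodes the core protein of the deuterosome on which new centrioles form, was below the filter at 10 and 6 reads in Controls and 6 and 6 in Yap CKO.

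Gmnc, the geminin-like factor that acts above Mcidas, stood at 27.1 and 29.2 in Controls and at 5.77 and 22.4 in Yap CKO. The Yap CKO libraries thus differed from each other more than Yap CKO 2 differed from the Controls (-1.21 ± 0.61, limma adjusted p = 0.345). Rfx2 stood at 189.9 and 205.8 in Controls and at 166 and 144 in Yap CKO (-0.35 ± 0.17, limma adjusted p = 0.323). Rfx3, with far more reads, stood at 1080 and 925 in Controls and at 709 and 846 in Yap CKO (-0.37 ± 0.13, limma adjusted p = 0.212). Without Control 2 Rfx3 passed (-0.48, limma adjusted p = 0.0244), in a fit that called 12.6% of all genes. The 6 tested regulators kept their sign under every alternative in which they passed the filter. This adds little, because leaving out 1 library cannot turn the sign of a gene whose groups do not overlap.

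Markers of the airway epithelium, in which multiciliated cells arise, differed in both directions. Without overlap, 25.6% of all genes tested were lower and 25.2% higher. Of the 6 proximal airway markers 4 were lower without overlap (among them Krt5, with 2 to 6 reads), 1 was higher and 1 overlapped. The list's sums overlapped between groups, and it summed to 814 and 1093 normalized counts in Controls and to 772 and 852 in Yap CKO. The airway transcription factor gene Sox2 stood at 374 and 381 in Controls and at 194 and 208 in Yap CKO, while the club cell gene Scgb1a1 stood at 105 and 70.2 against 22.1 and 23.3. The other secretory gene, Scgb3a2, stood at 132 and 365 in Controls and at 351 and 398 in Yap CKO, with overlapping groups (0.77 ± 0.43, limma adjusted p = 0.398). The basal cell gene Trp63 was the 1 that was higher, at 77.5 and 108 against 139 and 135, and none of the 6 stood at 0. The 8 lung epithelial markers summed to 19197 and 18072 in Controls and to 17580 and 18337 in Yap CKO, a sum of unlike changes. Of these 8, 3 were lower without overlap (Cdh1, Cldn6 and Krt8) and 1 was higher (Sftpc). Sftpc rose, at 1808 and 1951 in Controls against 3673 and 3662 in Yap CKO (limma adjusted p = 0.0091). Sox2 (limma adjusted p = 0.0286) and Scgb1a1 (limma adjusted p = 0.0363) fell. The part of these markers in the lower regulator values was not tested.

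The axoneme members did not share that direction. Of the 20 motile members that are no regulator, 12 were tested, 8 with a log2 change above 0 and 4 below, with a median of 0.22. Of all 20, 5 were higher without overlap, 3 were lower and 12 overlapped. Among the 12 tested, 5 were higher and 2 lower without overlap, beside 25.2% and 25.6% of all genes tested. The largest difference was in Dnah11, a heavy chain of the outer dynein arm (mm10 chromosome 12, 117877982 to 118199043). Dnah11 stood at 53.3 and 40.9 in Controls and at 1.92 and 12.1 in Yap CKO, from 55, 35, 2 and 13 reads. Both Controls were above both Yap CKO libraries, at a mean fold of 0.149 and a log2 difference of -2.95 ± 0.71 with a 95% interval of -4.65 to -1.24 (limma adjusted p = 0.0974). Dnah11 passed with DESeq2 (adjusted p = 0.0287), which called 5.33% of all genes. It did not pass with edgeR (adjusted p = 0.0976) or with the replicate block (limma adjusted p = 0.104). Without Yap CKO 1 the log2 difference of Dnah11 was -1.86. Its exons share 642 bases with Cdca7l on the opposite strand, which stood at 903 and 856 in Controls and at 688 and 731 in Yap CKO.

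The members hold 2 more dynein heavy chains of the outer arm, Dnah9 and Dnah5. Dnah9 stood at 11.6 and 14.0 in Controls and at 23.1 and 19.6 in Yap CKO, higher without overlap (0.69 ± 0.38, limma adjusted p = 0.384). Dnah5 was read 1 and 0 times in Controls and 0 and 3 times in Yap CKO. The dynein light chain gene Dynlrb2 held 1, 0, 3 and 1 reads in the same order, so that neither allows a fold.

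None of the 10 structural members of the axoneme passed. Of the 10, 4 were higher without overlap, 0 were lower and 6 overlapped. These 4 were among the 7 tested, and 25.2% of all genes tested were higher without overlap. The 7 tested had log2 changes above 0, with a median of 0.45, and the sign of Tekt1, Ccdc40 and Hydin turned in at least 1 alternative. Spag17, a protein of the central apparatus, stood at 37.8 and 25.7 in Controls and at 65.4 and 71.8 in Yap CKO. This is a mean fold of 2.16 and a log2 difference of 1.11 ± 0.29 (limma adjusted p = 0.118). Ccdc39, which with Ccdc40 forms the ruler that spaces the dynein arms, stood at 252 and 215 in Controls and at 317 and 334 in Yap CKO (0.48 ± 0.15, limma adjusted p = 0.155). Its partner Ccdc40 ran from 45.5 to 52.6 with the groups overlapping (0.07, 95% interval -0.53 to 0.68). Without Control 1 Spag17 (1.38, limma adjusted p = 0.011) and Ccdc39 (0.59, limma adjusted p = 0.0315) passed, in a fit that called 12.6% of all genes.

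Drc1, of the nexin-dynein regulatory complex, stood at 7.75 and 9.36 in Controls and at 16.3 and 15.8 in Yap CKO (0.84 ± 0.41, limma adjusted p = 0.336). Tekt2, a filament protein inside the microtubule wall, stood at 25.2 and 22.2 in Controls and at 34.6 and 30.8 in Yap CKO. Both genes were higher without overlap, from 8 and 8 against 17 and 17 reads for Drc1. Its relative Tekt1 ran from 65.5 (Control 2) to 123 (Control 1), with both Yap CKO libraries between. Hydin, a central pair protein, stood at 31.0 and 36.3 in Controls and at 59.6 and 31.7 in Yap CKO.

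The genes for dynein arm assembly factors, which preassemble the arms in the cytoplasm, did not pass, and their intervals were wide. Dnaaf3 stood at 124 and 93.6 in Controls and at 92.3 and 83.0 in Yap CKO, lower without overlap (-0.30, 95% interval -0.84 to 0.25). Dnaaf3 shares 86 exon bases with the heart gene Tnni3 on the same strand, which ran from 55.2 to 1099. Zmynd10 ran from 12.5 to 17.4, with overlapping groups (-0.08, 95% interval -1.06 to 0.89), and Dnaaf1 held 1 or 2 reads per library. Of the remaining ciliated cell genes, Cfap126 (Flattop), which positions basal bodies, ran from 20.5 to 33.7. Cdhr3, a cadherin of ciliated cells, held at most 3 reads. Pifo held 1 read in each Control and 0 in each Yap CKO library, where a count of 0 allows up to 2.88 and 2.80 normalized counts. The radial spoke genes Rsph1 (3 to 8 reads) and Rsph4a (0 to 3) and the adenylate kinase gene Ak7 (3 to 6) were below the filter too, with overlapping groups.

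Exon bases were shared with another gene model by 12 of the 38 members, and the sources used here do not give the strand setting of the counting. Among the 7 members at an unadjusted p under 0.05, this holds for Dnah11, Ccdc39 (1256 bases shared with Ttc14), Spag17 (820 with Wdr3) and Bbs4 (194 with Adpgk). Wdr3 stood at 1131 and 1117 in Controls and at 1080 and 1228 in Yap CKO, and Ttc14 at 2308 and 1897 against 2005 and 2366. Adpgk stood at 1301 and 1570 in Controls and at 1756 and 1737 in Yap CKO. Each of these neighbours had several times the reads of the member, so the values of the 4 members are uncertain to that extent. Foxj1, Ccno and Rfx3 share no exon bases with another model.

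**Figure D4:**
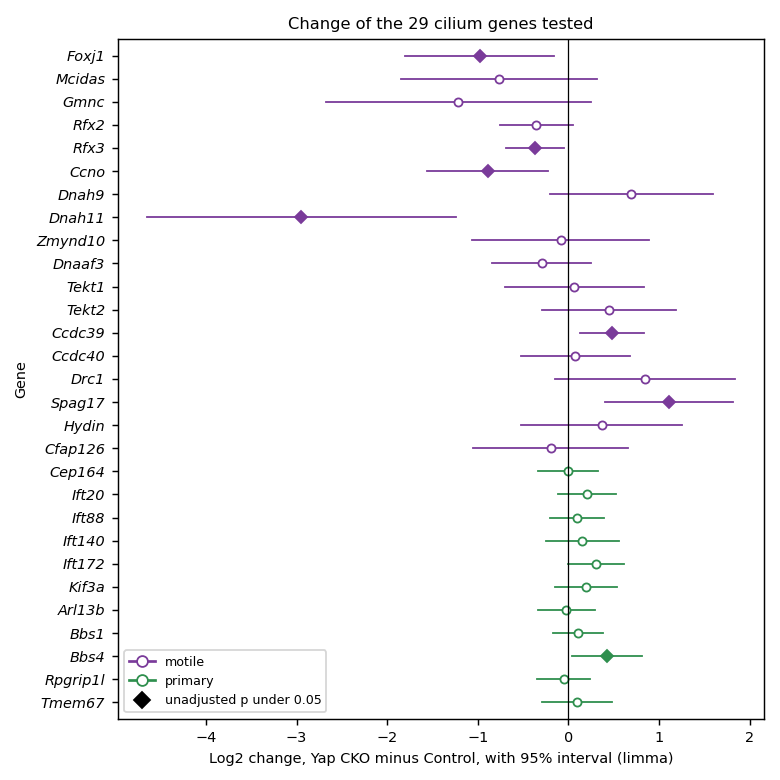
Log2 change of the 29 tested cilium genes (horizontal, Yap CKO minus Control, limma) with its 95% interval, motile genes in purple and primary cilium genes in green, with filled diamonds for an unadjusted p under 0.05. The intervals of the primary cilium genes lie between -0.34 and 0.81, and the median interval is ± 0.79 for the motile genes against ± 0.32 for the primary cilium genes.

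The primary cilium members were measured with far more reads, and their differences were small. All 11 log2 changes lay between -0.05 and 0.43, with a median of 0.11 and a median 95% interval of ± 0.32. Of the 11, 3 were higher without overlap, 0 were lower and 8 overlapped, beside 25.2% of all genes tested that were higher and 25.6% that were lower. Ift88, a core subunit of the anterograde IFT-B train, stood at 687 and 586 in Controls and at 657 and 699 in Yap CKO. Its groups overlapped, at a log2 difference of 0.09 with a 95% interval of -0.20 to 0.39. Ift20, which also links the Golgi to the cilium, stood at 595 and 526 against 703 and 595 (0.21, -0.11 to 0.53). Ift172, another IFT-B subunit, stood at 1166 and 932 in Controls and at 1310 and 1259 in Yap CKO, without overlap (0.30 ± 0.13, limma adjusted p = 0.274).

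Ift140, of the retrograde IFT-A complex, stood at 1035 and 739 in Controls and at 1020 and 926 in Yap CKO (0.15, 95% interval -0.25 to 0.56). Kif3a, a motor subunit of the anterograde kinesin, stood at 1383 and 1064 against 1333 and 1445 (0.19, 95% interval -0.15 to 0.53). For these transport genes Control 2 was the lowest of the 4 libraries. Cep164, a distal appendage protein that docks the mother centriole, stood at 1551 and 1297 in Controls and at 1555 and 1286 in Yap CKO, with a log2 difference of 0.00 (95% interval -0.33 to 0.32).

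Bbs4, a subunit of the BBSome that carries membrane proteins through the cilium, had the largest difference of the 11. It stood at 287 and 226 in Controls and at 351 and 335 in Yap CKO, a mean fold of 1.34 (0.43 ± 0.16, limma adjusted p = 0.226). Without Control 1, Bbs4 (0.60, limma adjusted p = 0.0282) and Ift172 (0.46, limma adjusted p = 0.0224) passed, in a fit that called 12.6% of all genes. Bbs1 of the same complex stood at 550 and 499 in Controls and at 562 and 566 in Yap CKO (0.11, 95% interval -0.17 to 0.38). Arl13b, the GTPase of the ciliary membrane, stood at 693 and 574 against 595 and 645 (-0.03, 95% interval -0.34 to 0.29). The transition zone genes Rpgrip1l (697 to 819) and Tmem67 (366 to 491) had overlapping groups, with log2 differences of -0.05 (95% interval -0.34 to 0.24) and 0.09 (95% interval -0.30 to 0.49).

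Cilium genes beyond the members gave no call with limma either. Of 76 other motile cilium genes 48 were tested, and 0 passed with limma, 0 with edgeR and 1 with DESeq2 (Foxa2), while 11 had an unadjusted p under 0.05. The shares of all genes tested were 5.33% with DESeq2 and 18.9% at an unadjusted p under 0.05. Foxa2, a forkhead factor of the lung epithelium, stood at 709 and 633 in Controls and at 426 and 478 in Yap CKO (-0.57 ± 0.12, limma adjusted p = 0.0793). E2f4, the partner of Mcidas in switching on the multiciliated program, stood at 1815 and 1875 against 1533 and 1508 (-0.28 ± 0.09, limma adjusted p = 0.167). Foxn4, Trp73 and Cdc20b, the listed regulators more specific to multiciliated cells, were below the filter. The 10 tested genes of that list of other regulators are not specific to those cells. They did not share 1 direction, with 5 log2 changes above 0 and 5 below. At an unadjusted p under 0.05, 4 were lower and 0 higher, where 9.52% of all genes tested were lower. These 4, all without overlap, were Foxa2, E2f4, Rfx7 (-0.28 ± 0.10, limma adjusted p = 0.215) and Foxa1 (-0.25 ± 0.09, limma adjusted p = 0.228). Tfdp1, the E2F dimer partner gene, stood at 1963 and 1793 in Controls and at 2107 and 2264 in Yap CKO, higher without overlap (0.22 ± 0.10, limma adjusted p = 0.291), as was Rfx5 (0.18 ± 0.11, limma adjusted p = 0.425). Tfdp1 and Rfx5, like Rfx7 and Foxa1, were chosen after their values were seen. Among axoneme genes Cfap44 stood at 20.4 and 14.0 in Controls and at 37.5 and 41.0 in Yap CKO (1.17 ± 0.34, limma adjusted p = 0.145). Tppp3, a tubulin-binding protein gene, went the other way (-0.51 ± 0.16, limma adjusted p = 0.164). Over the 38 other axoneme genes tested the median log2 change was 0.15, with 27 above and 11 below 0.

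Of 82 other primary cilium genes all were tested, and 0 passed with limma, 0 with edgeR and 2 with DESeq2 (Pcm1 and Tmem231), which called 5.33% of all genes. An unadjusted p under 0.05 was reached by 10, beside 18.9% of all genes tested. Of these 10, 5 were higher and 5 lower. Of the 82, 21 were higher without overlap and 16 lower, beside 25.2% and 25.6% of all genes tested. The 82 had a median log2 change of 0.03. Pcm1, the scaffold of the centriolar satellites, stood at 6263 and 5576 in Controls and at 4122 and 4136 in Yap CKO (-0.52 ± 0.10, limma adjusted p = 0.0539). Tmem231, of the transition zone, stood at 707 and 588 against 462 and 418 (-0.55 ± 0.14, limma adjusted p = 0.101). Dync2h1, the motor of retrograde transport, stood at 1336 and 1110 in Controls and at 823 and 964 in Yap CKO (-0.45 ± 0.13, limma adjusted p = 0.148). All 3 were lower without overlap, as was Ttc30a1 (-0.39 ± 0.12, limma adjusted p = 0.173). In the BBSome and membrane list Bbs2 was higher without overlap (303 and 255 against 413 and 344) and Unc119b lower (1783 and 1818 against 1617 and 1562), neither past the test. Without Control 1, 11 of the 82 passed, 10 higher and 1 lower (Pcm1), and without Control 2, 5 passed, 1 higher and 4 lower, Pcm1 among them. Each of these fits called 12.6% of all genes, so 11 of 82 is near that share and 5 of 82 is below it.

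Hedgehog genes, whose signal is read at the primary cilium, did change. Of 10, 4 fell (1.15% of all genes tested fell) and 6 did not pass. The ligand gene Shh stood at 1069 and 906 in Controls and at 212 and 345 in Yap CKO (-1.86 ± 0.23, limma adjusted p = 0.0181). The receptor gene Ptch1 (10176 and 8744 against 5084 and 6169, -0.75 ± 0.13, limma adjusted p = 0.0435) and the antagonist gene Hhip (4162 and 3381 against 784 and 1366, -1.86 ± 0.25, limma adjusted p = 0.0231) fell too. The transducers Smo (4308 to 5117) and Gli1 (2811 to 3177) had overlapping groups, and are given after their values were seen. None of the 4 passed without Yap CKO 1 or without Yap CKO 2, fits in which all genes gave 2 and 7 calls.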

How the data were processed

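The authors deposited a table of normalized read counts, a signal per Ensembl gene in which each library's reads had been divided by 1 factor (per the file's values, 100% of values above 0 were whole reads within 0.001). Build mm10, featureCounts 1.5.0-p1 and Bowtie2 2.2.9 are listed in the submitters' processing notes, as are edgeR 3.18.1 and DESeq 1.16.0, without their role or order. Symbols, positions and exon lengths came from GENCODE M21 (GRCm38, also called mm10), which matched 52489 of 52636 identifiers. Genes with a mean of at least 10 were tested on log2(value + 1) by limma 3.58.1 (R 4.3.3, group as the only term, intensity trend, two-sided, Benjamini-Hochberg over all genes). That fit had 2 residual degrees of freedom plus 4.54 from the other genes. The added 1 draws the log2 change of low genes toward 0. As a difference of mean logs it can also exceed what the mean fold implies, as in Dnah11 (2 and 13 reads in Yap CKO). Recovered reads were also tested with edgeR 4.0.16 (quasi-likelihood, TMM), which called 404 genes, and DESeq2 1.42.0. Counting intervals are exact (Clopper-Pearson) and, like the floor of 3 reads, cover counting error only. Replicates differed by more than sampling noise (chi-square per degree of freedom 22.1 in Control, 6.64 in Yap CKO). The script was tested on simulated data.

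The members and gene lists were chosen with earlier results of these data known. The text names all 38 members, Yap1, called hedgehog genes (1 is not reported here), and from each other cilium list the called genes and the 2 with the smallest p. Dnai1 and Dnai2 were not analysed here.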

Additional observations from a re-analysis of the deposited data

How the results depend on the processing

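Each value was recomputed under 15 alternatives, 1 of them (the crossed pairing) chosen after the data were seen. Of 44 named genes tested, 32 kept their direction wherever they were tested and 12 did not; DESeq2 gave no adjusted p for Mcidas and Drc1. The calls over all genes numbered 454, 56 without the filter, 6 without the intensity trend, 1037 with DESeq2 and 2 to 2459 with 1 library left out. Motile members called numbered 0, 1 with DESeq2 and 0 to 3 with 1 library left out. Primary cilium members numbered 0 to 2 with 1 library left out. Other motile genes numbered 1 with DESeq2 and 0 to 5 with 1 left out, and other primary cilium genes 2 and 0 to 11. Hedgehog calls numbered 0 without the filter or the trend and 0 to 4 with 1 left out. The motile median was 0.067 at a filter of 50 and -0.29 to -0.06 with 1 left out, and the primary cilium median -0.020 to 0.30. Fits with 1 library left out assume that the lone sample varies like the other group.

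The shared replicate numbers are no stated pairing, and deviations of same-numbered samples correlated at -0.364 across genes. With the replicate block 342 genes, 0 motile and 0 primary cilium members and 3 hedgehog genes were called, and with the crossed block 972 genes, 1 motile member, 1 other motile and 2 other primary cilium genes.

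Signs turned under equal totals for Cep164 (0.058), Arl13b (0.036) and Rpgrip1l (0.012), and for Tekt1 with edgeR (-0.0047) and DESeq2 (-0.0031). With 1 library left out the log2 change ran from -0.29 to 0.12 for Zmynd10, -0.38 to 0.52 for Tekt1, -0.029 to 0.18 for Ccdc40, -0.079 to 0.81 for Hydin and -0.54 to 0.15 for Cfap126. It ran from -0.14 to 0.13 for Cep164, -0.020 to 0.21 for Ift88, -0.091 to 0.39 for Ift140, -0.16 to 0.11 for Arl13b, -0.15 to 0.053 for Rpgrip1l, -0.12 to 0.31 for Tmem67 and -0.58 to 0.13 for Yap1. The cause was not tested. Depth limits the motile members, of which 9 were below the filter.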

Other observations

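Values of further dynein heavy chain genes, chosen after they were seen, are given for comparison with Dnah11. Dnah2 had 77.5 and 43.3 normalized counts in the Controls, against 129.8 and 90.4 in Yap CKO, and Dnah17 had 56.2 and 56.1 against 93.3 and 79.2. Both were higher without overlap, and neither passed (limma adjusted p = 0.23 and 0.224). Dnah1 (334 and 264 in Controls against 404 and 339 in Yap CKO) and Dnah6 (10.7 and 19.9 against 20.2 and 36.4) were higher too. Neither of these passed (limma adjusted p = 0.379 and 0.393). Of all genes tested 25.2% were higher without overlap. Dnah7b (182 to 263), Dnah8 (85.6 to 102), Dnah7a (19.9 to 21.3), Dnah10 (7.02 to 23.3) and Dnah12 (8.19 to 11.5) had overlapping groups. Dnah3 held at most 2.91 normalized counts. Ccdc114, which docks the outer dynein arm, stood at 93.0 and 58.5 in Controls and at 137 and 121 in Yap CKO (limma adjusted p = 0.187).

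The multiciliated regulators outside the members were scarce where they are specific to those cells. Of these, Foxn4 had 2.91 normalized counts in Control 1 and 0 in the other libraries, and Trp73 ran from 4.66 to 5.81. Cdc20b, which lies downstream of Mcidas, was read 0 and 0 times in Controls and 4 and 1 times in Yap CKO, up to 3.85 normalized counts. Among primary cilium genes with no call, Cep290, a transition zone protein gene, stood at 550 and 363 in Controls and at 257 and 318 in Yap CKO (limma adjusted p = 0.195). Ofd1, a centriolar protein gene, stood at 538 and 482 against 695 and 656 (limma adjusted p = 0.134).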
